A study of Mus musculus with 12 samples.

Results

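Among single blood progenitors sorted from fetal mouse liver, 169 wells with the most RNA of 5 granulocyte marker genes were set apart. They were described against the other wells and across 4 genotypes. A well is 1 position of a plate that received 1 sorted cell. Of 4608 wells, 2811 held at least 3000 UMIs (unique molecular identifiers, the tags that mark single captured mRNA molecules). Each was scored by the mean over Mpo, Elane, Prtn3, Ctsg and Ms4a3 of log2(1 + UMIs per 10000 UMIs), and the top 6% became the members. The other 2642 wells are called the other wells. Because the 5 genes chose the members, their values are given as a description, with no test.

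Granulocytes arise from progenitors that first switch on the genes of the azurophil, or primary, granule and only later those of the secondary granule. Myeloperoxidase, encoded by Mpo, makes hypochlorous acid. Elane, Prtn3 and Ctsg encode neutrophil elastase, proteinase 3 and cathepsin G, serine proteases stored in the same granule, and Ms4a3 encodes a membrane protein known as a mark of granulocyte-monocyte progenitors. C/EBP-alpha, PU.1 and MYB are transcription factors known to drive this programme, and in the fetus it runs in the liver.

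The cells were LSK cells (negative for lineage markers, positive for Sca-1 and Kit), which hold stem cells and multipotent progenitors. They came from C57BL/6J fetuses at embryonic day 18.5 and were sorted by FACS for SORT-seq, which tags the 3' ends of mRNA well by well. By label, 4 plates held double mutant cells (homozygous Pcna K164R and homozygous Rev1 knockout), 3 plates held cells with homozygous Rev1 knockout alone, 2 held cells homozygous for Pcna K164R alone, and 3 held wild-type (WT) cells. Rev1 is a translesion DNA polymerase and Pcna the sliding clamp of replication, whose lysine at the mutated site is ubiquitinated when a fork meets damage. The question the design poses is how loss of these DNA damage tolerance functions changes the stem and progenitor compartment. Nothing in the labels says that plates are separate animals, so p-values measure the spread between plates, which may be technical. Replicate numbers only name a plate.

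Summed over wells past the minimum, the plates held between 108870 and 11577290 UMIs, with plate medians between 5003 and 37167 UMIs per well. Rev1, counted over all these wells, stood at 1.30, 2.49, 0 and 14.0 counts per 1000000 UMIs (CPM) in double mutant replicates 1 to 4, at 6.02, 1.36 and 4.08 CPM in Rev1 knockout plates, at 11.4 and 7.90 CPM in Pcna K164R plates, and at 11.0, 20.7 and 13.4 CPM in WT plates. The library labelled double mutant replicate 4 therefore lay within the WT range, against its label. Only 17 wells of double mutant replicate 3 passed the minimum. The labels give 3 sort dates, called sessions. Session 1 held double mutant replicates 1 and 2, both Pcna K164R plates and WT replicate 1. Session 2 held double mutant replicate 3 and Rev1 knockout replicate 1, and session 3 held the remaining 5 plates. All plates use the same well barcodes by design. Of 133 well numbers that held a member, 33 held one in more than 1 plate. At the well numbers of the highest-scoring 39 members, 24 of 276 wells in other plates were members (8.70%).

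The 5 rule genes lie on 4 chromosomes of GRCm38. Prtn3 (chr10:79874476-79883174, plus strand) and Elane (chr10:79886247-79888215, plus strand) are neighbours, 3073 bases apart. Mpo lies at chr11:87793581-87804413 on the plus strand, Ctsg at chr14:56099881-56102574 on the minus strand and Ms4a3 at chr19:11629496-11640851 on the minus strand. Their promoters are shown because the 5 genes define the wells. Each line gives the 250 bases before the start of the gene in RefSeq on GRCm38.p6, 5' to 3' on the gene's strand. The RefSeq starts of Mpo, Elane and Prtn3 lie inside the GENCODE spans above, so those 3 windows overlap them. Capitals mark AGGAAGT (a PU.1-type motif) and CAACGG (a MYB-type motif), searched on both strands.
Mpo: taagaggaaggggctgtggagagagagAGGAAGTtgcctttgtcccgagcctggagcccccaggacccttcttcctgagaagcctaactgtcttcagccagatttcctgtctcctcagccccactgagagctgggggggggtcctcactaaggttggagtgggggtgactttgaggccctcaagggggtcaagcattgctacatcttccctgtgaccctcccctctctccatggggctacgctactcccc
Elane: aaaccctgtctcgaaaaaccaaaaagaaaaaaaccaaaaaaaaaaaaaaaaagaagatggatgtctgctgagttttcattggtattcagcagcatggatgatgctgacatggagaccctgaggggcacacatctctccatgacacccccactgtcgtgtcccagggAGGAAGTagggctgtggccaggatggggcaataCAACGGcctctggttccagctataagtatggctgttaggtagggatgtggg
Prtn3: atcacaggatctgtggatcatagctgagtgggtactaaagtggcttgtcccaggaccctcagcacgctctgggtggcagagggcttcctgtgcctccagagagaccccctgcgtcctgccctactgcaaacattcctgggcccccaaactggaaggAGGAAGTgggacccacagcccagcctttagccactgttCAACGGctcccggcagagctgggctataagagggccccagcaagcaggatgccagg
Ctsg: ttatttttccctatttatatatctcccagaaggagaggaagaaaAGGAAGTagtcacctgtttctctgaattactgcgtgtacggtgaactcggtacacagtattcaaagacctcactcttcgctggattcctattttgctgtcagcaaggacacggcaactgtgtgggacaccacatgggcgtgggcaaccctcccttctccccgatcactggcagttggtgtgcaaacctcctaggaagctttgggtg
Ms4a3: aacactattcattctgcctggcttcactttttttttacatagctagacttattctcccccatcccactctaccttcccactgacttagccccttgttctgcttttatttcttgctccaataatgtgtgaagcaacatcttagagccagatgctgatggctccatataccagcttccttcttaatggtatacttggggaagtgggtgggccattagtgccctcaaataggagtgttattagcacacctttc

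The windows span chr11:87793534-87793783 for Mpo, chr10:79886062-79886311 for Elane, chr10:79879417-79879666 for Prtn3, chr14:56102575-56102824 for Ctsg and chr19:11640852-11641101 for Ms4a3. AGGAAGT stood in 4 of the 5 windows, 223 bases before the start in Mpo, 84 in Elane, 94 in Prtn3 and 206 in Ctsg. It occurs in 7.80% of all 27025 promoter windows of this length. CAACGG stood in 2 of the 5, Elane at 51 and Prtn3 at 56 bases, against 4.15% of all windows. The neighbouring protease genes thus carried both words in the same order at near-equal distances. A C/EBP-type word, TTNNGNAA, stood in Ms4a3 alone, 59 bases before the start, and in 36.9% of all windows. No 2 matches overlapped. The words were chosen after the sequences were looked at, and a match is a description, not a binding site.

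The score separated a small group of wells from a continuum. Of all scored wells, 1555 scored under 0.5, 946 between 0.5 and 1, and 141 from 1 up to the threshold of 1.22. Among members, 84 scored up to 1.6, 46 from 1.6 to 2.5, and only 9 from 2.5 to 3.5, while 10 lay between 3.5 and 5 and 20 above 5. The threshold therefore fell inside a slope: 29 members lay within 0.1 above it and 50 other wells within 0.1 below. The last well inside, of Rev1 knockout replicate 1, held 17 Mpo and 35 Prtn3 UMIs of 33700 and none of the other rule genes. The first well outside, of WT replicate 2, held 7 Mpo, 5 Elane, 3 Prtn3 and 1 Ctsg UMIs of 18810. The highest score, 6.20, belonged to a Pcna K164R replicate 1 well with 772 Mpo, 636 Elane, 411 Prtn3, 248 Ctsg and 81 Ms4a3 UMIs of 45975.

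Because of this shape the members are described in 2 tiers, divided at a score of 2.5 after the data were seen: a higher tier of 39 wells and a lower tier of 130 wells. All 5 rule genes had a UMI in 36 of 39 higher-tier wells, 16 of 130 lower-tier wells and 9 of 2642 other wells (0.341%). The tiers were cut on the score of these 5 genes, so the counts do not test the name granulocyte-primed progenitor. In the lower tier, Mpo had a UMI in 130 of 130 wells, Prtn3 in 122, Ctsg in 92, Elane in 84 and Ms4a3 in 26. Only Mpo and Prtn3 of the 5 were seen in 11 lower-tier wells. The median higher-tier well held 36762 UMIs and 5988 genes, the median lower-tier well 20156 UMIs and 4775.5 genes, and the median other well 18086 UMIs and 4714 genes. Mitochondrial RNA made up a median of 8.43%, 8.0% and 8.71% of UMIs in higher-tier, lower-tier and other wells. Members were deeper than the other wells of their plate in 10 of 12 plates, yet over all scored wells the score hardly followed depth (Spearman rho 0.033, a description over 2811 wells). No doublet caller was run on this single-cell sort, so whether deeper wells held more than 1 cell was not tested.

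**Figure D1:**
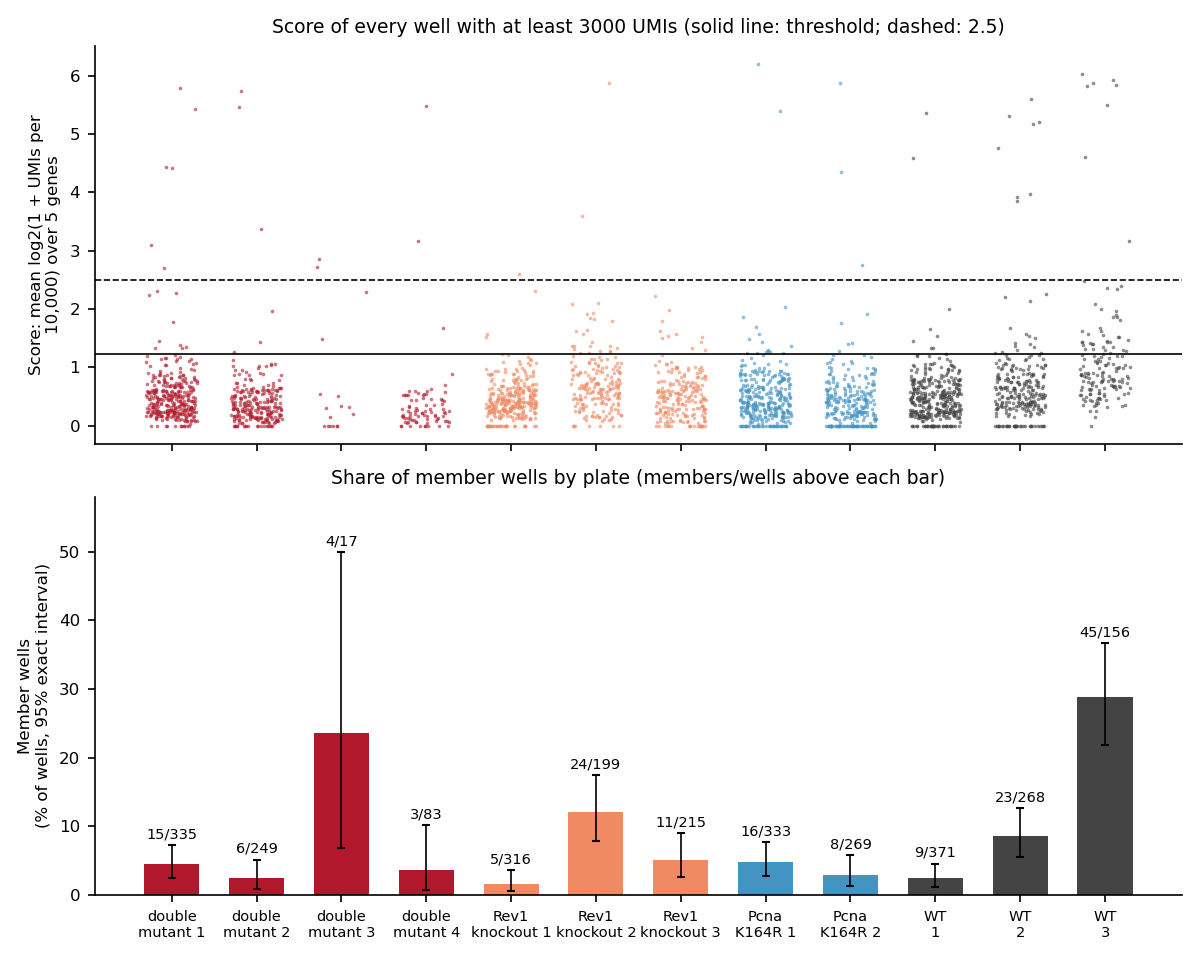
Score of each well by plate (upper panel, 1 point per well, solid line at the threshold of 1.22 and dashed line at 2.5) and the share of member wells in each plate with its exact 95% interval (lower panel). Wells above the dashed line are few in every plate and absent in Rev1 knockout replicate 3, while the share is highest in WT replicate 3, at 45 of 156 wells.

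By pooled CPM, Mpo was the most abundant rule gene in every tier. Its median was 271 UMIs in higher-tier wells, 16.5 in lower-tier wells and 1 in other wells. Elane had medians of 98, 1 and 0 UMIs, Prtn3 of 120, 8 and 2, Ctsg of 111, 2 and 0, and Ms4a3 of 27, 0 and 0 in the same order. Pooled over wells, Mpo made up 9233 CPM of higher-tier, 1387 CPM of lower-tier and 168 CPM of other wells. Elane fell off far more steeply between the tiers, with 5124, 114 and 17.3 CPM, as did Ms4a3, with 980, 9.26 and 1.09 CPM. Low-level Mpo and Prtn3 were common outside the members: 69.9% of other wells had an Mpo UMI and 70.6% a Prtn3 UMI, against 27.5% for Elane, 12.4% for Ctsg and 2.31% for Ms4a3. Wells under 500 UMIs, in which free RNA should dominate, numbered 1252, with a median depth of 111 UMIs. Mpo had a UMI in 7.35% of them, Prtn3 in 3.04%, Elane in 4.79%, Ctsg in 1.68% and Ms4a3 in 0.320%. Pooled, they held 608 CPM of Mpo, 405 of Elane, 239 of Prtn3, 114 of Ctsg and 20.8 of Ms4a3. The other wells held 168, 17.3, 113, 6.87 and 1.09 CPM in that order, so each gene was lower there per UMI. Plates differed: Mpo was at 2114 CPM in these shallow wells of WT replicate 3 and at 0 in those of WT replicate 1 and both Pcna K164R plates. Thinned to 3000 UMIs per well, Mpo was seen in 100% of higher-tier, 94.6% of lower-tier and 30.6% of other wells, Elane in 82.1%, 38.5% and 6.51%, and Ms4a3 in 76.9%, 3.08% and 0.416%.

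Whether each rule gene followed the other 4 was described by leaving it out of the score and taking again the top 169 wells. Ctsg then had a UMI in 66.9% of the wells picked without it, against 13.1% of the rest, and Ms4a3 in 34.9% against 2.42%. Elane was seen in 58% against 28.4%, Prtn3 in 88.8% against 71.0% and Mpo in 92.3% against 70.4%. Between 138 and 166 of the wells picked without 1 gene were members. Within the higher tier the CPM of the 5 genes moved together, with Spearman rho between 0.56 and 0.88 over 39 wells. Within the lower tier Elane ran against Mpo (rho -0.47) and Prtn3 (rho -0.44) over 130 wells of all plates. A well could pass the threshold with either, and plates differed in this. WT replicates 2 and 3 had Elane in 14 of 15 and 36 of 37 lower-tier wells, at 746 and 810 CPM of Mpo. Rev1 knockout replicate 3 had it in 1 of 11, at 1395 CPM of Mpo. Double mutant replicate 1 had it in 7 of 9, at 1692 CPM of Mpo. Whether the 2 genes ran against each other within plates was not tested.

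The rule genes varied widely between plates. Elane in member wells stood at 1776, 2412, 657 and 4762 CPM in double mutant replicates 1 to 4, at 23.3, 799 and 2.74 CPM in Rev1 knockout plates, at 1234 and 2492 CPM in Pcna K164R plates, and at 829, 2517 and 3414 CPM in WT plates. The Rev1 knockout plates were the lowest or among the lowest, although replicate 2 was within reach of WT replicate 1. Mpo in the same wells stood at 4798, 6254, 1497 and 7126 CPM in double mutant, at 2958, 2377 and 1395 CPM in Rev1 knockout, at 2565 and 4025 CPM in Pcna K164R, and at 3411, 3909 and 6191 CPM in WT plates. Ctsg ranged from 402 to 2926 CPM in double mutant, 287 to 572 CPM in Rev1 knockout, 617 to 1664 CPM in Pcna K164R and 1006 to 1966 CPM in WT plates. Prtn3 ranged from 219 to 3585 CPM in double mutant, 624 to 1199 CPM in Rev1 knockout, 1294 to 2393 CPM in Pcna K164R and 1315 to 3780 CPM in WT plates. Ms4a3 was at 0 in the members of Rev1 knockout replicates 1 and 3 and reached 136 CPM in replicate 2, against 132 to 718 CPM in WT plates. These sums mix the tiers: the higher tier gave 46.9%, 59.5%, 26.9% and 94.9% of member UMIs in double mutant plates, 31.3%, 10.8% and 0% in Rev1 knockout plates, 10.1% and 45.1% in Pcna K164R plates, and 25.4%, 51.5% and 44.6% in WT plates. In sums over wells, fewer high-scoring cells and less RNA per cell cannot be told apart. Mpo in the higher tier was at 3737 and 9010 CPM in Rev1 knockout replicates 1 and 2. WT plates had 8600, 6889 and 12864 CPM. Lower-tier Mpo was at 2604, 1573 and 1395 CPM against 1647, 746 and 810 CPM in WT. Elane was at 74.5 and 6776 CPM against 3253, 4533 and 7094 CPM in the higher tier. Its lower-tier values were 0, 74.9 and 2.74 CPM against 5.05, 378 and 446 CPM. The tiers were cut on these genes, and the part of each in the sums was not tested.

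**Figure D2:**
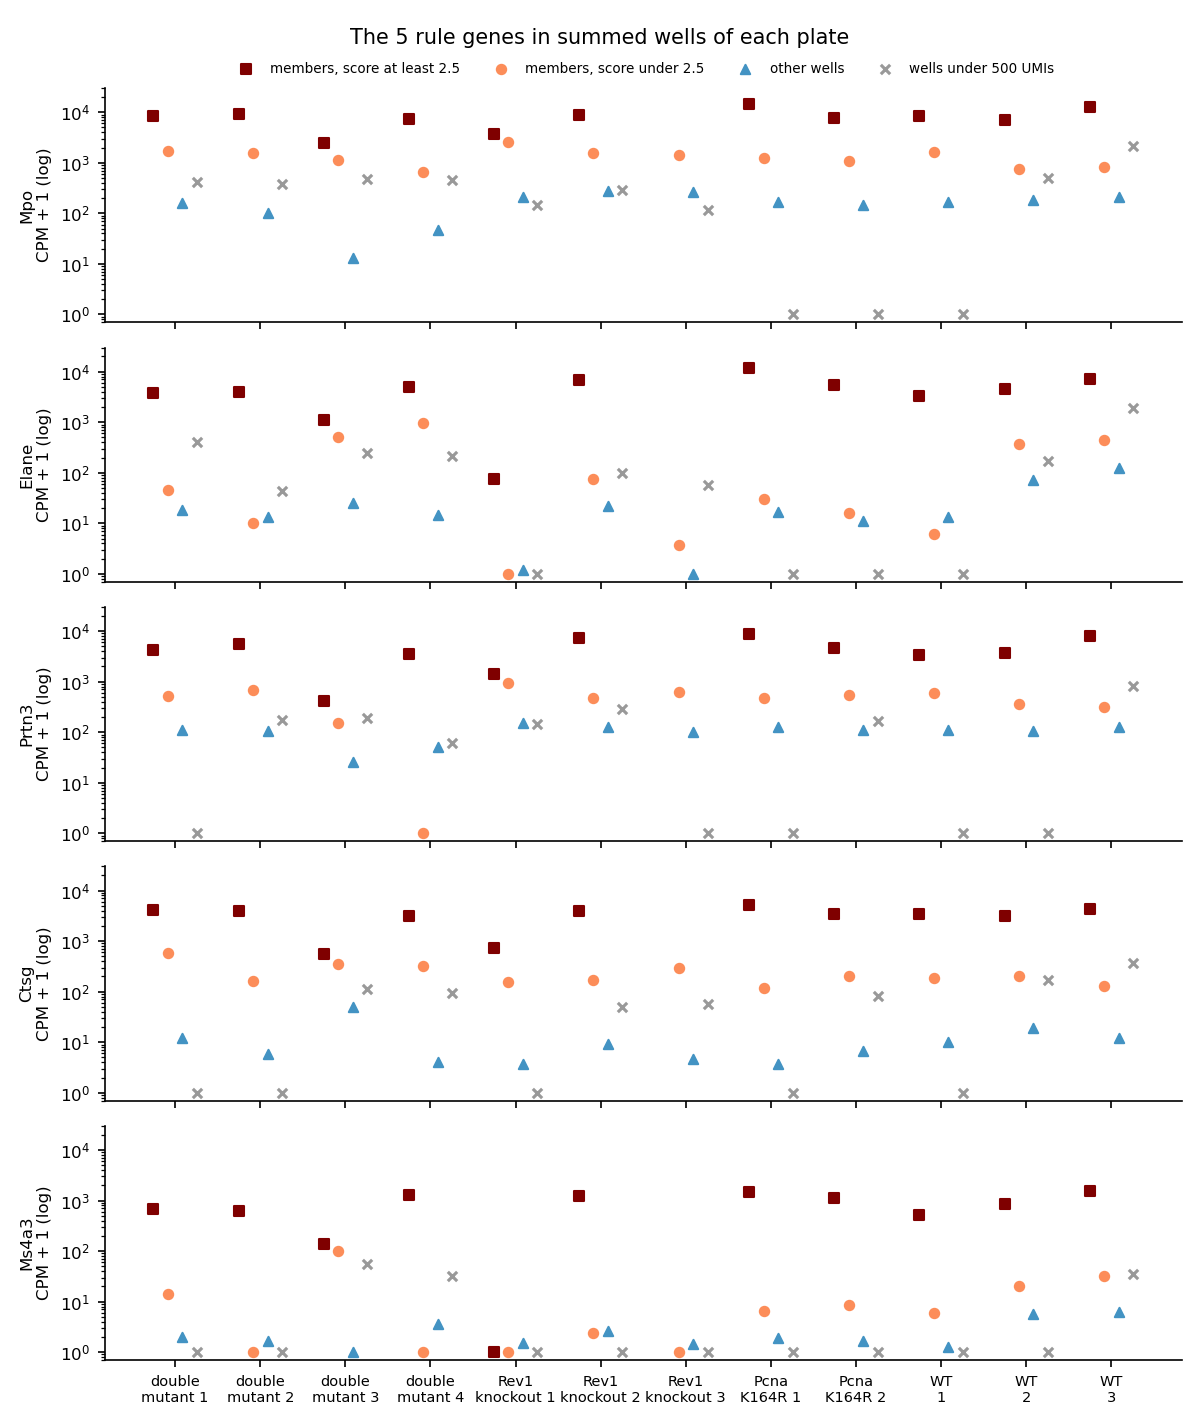
CPM + 1 (log axis) of each rule gene in summed higher-tier wells, lower-tier wells, other wells and wells under 500 UMIs of each plate. Higher-tier wells are far above the other wells for Mpo, Prtn3 and Ctsg in every plate that has them, Ms4a3 is at 0 in the 1 higher-tier well of Rev1 knockout replicate 1, and the wells under 500 UMIs of WT replicate 3 carry more Mpo and Elane than those of any other plate.

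Members made up 4.48% (15 of 335), 2.41% (6 of 249), 23.5% (4 of 17) and 3.61% (3 of 83) of wells in double mutant replicates 1 to 4. They made up 1.58% (5 of 316), 12.1% (24 of 199) and 5.12% (11 of 215) in Rev1 knockout plates, 4.80% (16 of 333) and 2.97% (8 of 269) in Pcna K164R plates, and 2.43% (9 of 371), 8.58% (23 of 268) and 28.8% (45 of 156) in WT plates. The groups overlapped. Without double mutant replicate 3, which had under 20 wells, the mean share was 3.5% ± 1.04 (SD, n = 3, the library labelled double mutant replicate 4 included) in double mutant, 6.25% ± 5.33 (SD, n = 3) in Rev1 knockout, 3.89% ± 1.29 (SD, n = 2) in Pcna K164R and 13.3% ± 13.8 (SD, n = 3) in WT plates. The difference from WT was -9.78 percentage points in the double mutant, -7.03 in Rev1 knockout and -9.40 in Pcna K164R plates. None was larger than the spread between plates in two-sided exact permutation tests over plates (p = 0.3, 0.6 and 0.7, adjusted p = 0.7 over 5 pairs, smallest possible p = 0.1). The double mutant differed by -2.75 points from Rev1 knockout and by -0.39 from Pcna K164R plates (exact p = 0.6 and 0.7). With double mutant replicates 1 and 2 alone, the difference from WT was -9.84 points (exact p = 0.6). These tests do not use the session. Within session 1 the double mutant plates had 4.48% and 2.41% and the Pcna K164R plates 4.80% and 2.97%, against 2.43% in WT, so 3 of these 4 plates lay above the WT plate. Within session 3 the library labelled double mutant replicate 4 had 3.61% and the Rev1 knockout plates 12.1% and 5.12%, against 8.58% and 28.8% in WT.

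WT replicate 3 set the size of the WT mean. Without it, the differences from WT were -2.0 points for the double mutant, 0.75 for Rev1 knockout and -1.61 for Pcna K164R. Of the lower-tier wells, 7 of 9, 1 of 3, 2 of 2 and 1 of 1 carried an Elane UMI in double mutant replicates 1 to 4, 0 of 4, 14 of 22 and 1 of 11 in Rev1 knockout plates, 6 of 14 and 1 of 5 in Pcna K164R plates, and 1 of 7, 14 of 15 and 36 of 37 in WT plates. Most lower-tier wells thus carried Elane in WT replicates 2 and 3, but also in double mutant replicates 1, 3 and 4 and in Rev1 knockout replicate 2. The other wells of WT replicate 3 held 121 CPM of Elane and had a median score of 0.756, against 0 to 71.7 CPM and 0.154 to 0.591 in the other wells of the remaining plates. Its 179 wells under 500 UMIs held 55 Elane and 62 Mpo UMIs of 29330, so Elane RNA was present there outside well-filled wells. The part of this in the share was not tested. Scored without Elane, the share in WT plates was 3.23%, 6.72% and 17.3%, and the double mutant then differed from WT by -5.69 points (exact p = 0.2). Higher-tier wells alone numbered 6, 3, 2 and 2 in double mutant, 1, 2 and 0 in Rev1 knockout, 2 and 3 in Pcna K164R and 2, 8 and 8 in WT plates. In Rev1 knockout replicate 3, 0 of 215 wells allows a share of up to 1.40%.

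Outside the rule genes, the summed primary granule and early granulocyte list and the summed secretory list were higher in members in 10 of 10 plates. The summed stem cell and erythroid lists were higher in members in 0 of 10. Most genes of the first 2 lists were not apart by the count below. In lower-tier wells alone their median log2 ratios to other wells were 0.46 and 0.20. For 10 plates with at least 5 members, the log2 ratio of CPM was taken plate by plate (prior count 2). A gene was counted as apart when the mean was at least 1 in size and every plate had the same sign. Of 12692 genes, 95 were higher (0.749%) and 538 lower (4.24%) in members. The median over all genes was -0.24, and among 4061 genes of at least 50 CPM the counts were 63 higher (1.55%) and 61 lower (1.5%). These counts describe wells chosen from the same data and carry no test.

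Of 19 primary granule and early granulocyte genes, 5 were apart and all of them higher. Hp, encoding haptoglobin, averaged 110 ± 135 CPM in members and 1.32 ± 2.31 CPM in other wells (SD, n = 10 plates), a mean log2 ratio of 5.76 ± 1.81. Rab44, which encodes a large Rab GTPase, had a ratio of 4.27 ± 0.94, and Cst7, for the cysteine protease inhibitor cystatin F, of 3.24 ± 1.02. Plac8 was abundant in both, at 1479 ± 527 CPM in members and 287 ± 147 CPM in other wells (ratio 2.46 ± 0.82). Serpinb1a, an inhibitor of the granule proteases, had a ratio of 1.76 ± 0.63. The list had a median ratio of 1.76.

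Of 15 regulators of granulocyte and monocyte fate, Cebpa and Cebpd were higher and Egr1 lower. Cebpa, whose product C/EBP-alpha is required for granulocyte-monocyte progenitors in mice, averaged 54.8 ± 29.4 CPM in members and 5.22 ± 2.84 CPM in other wells (ratio 3.23 ± 1.07). Irf8, which directs progenitors to monocytes and dendritic cells, missed the count because it was higher in 9 of 10 plates (ratio 2.00 ± 1.29). Gfi1, which favours granulocytes over monocytes, was higher in 8 of 10 (ratio 0.63 ± 1.11). Pooled by tier, Gfi1 stood at 310 CPM in higher-tier, 49.99 CPM in lower-tier and 57.3 CPM in other wells, so it was above the other wells in the higher tier alone. Irf8 peaked instead in the lower tier, at 70.4, 144 and 26.2 CPM. Cebpe, a regulator of the secondary granule, had a UMI in 24 of 39 higher-tier wells, in 6 of 130 lower-tier wells and in 0.492% of other wells. Gfi1 without Irf8 was seen in 20 of 39 higher-tier wells and Irf8 without Gfi1 in 1, whereas the lower tier had 34 and 24 of 130 wells, and 976 and 291 of the 2642 other wells.

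Of 19 myeloid receptor genes, 5 were higher, among them Clec12a, an inhibitory lectin of myeloid cells (151 ± 103 CPM in members, 4.86 ± 3.21 CPM in other wells, ratio 4.60 ± 1.19), Fcgr3, an Fc receptor (ratio 3.08 ± 1.61), Cxcr4 (1.11 ± 0.63) and Il3ra (1.01 ± 0.63). Clec12a was at 460 CPM in the higher tier, 27.2 CPM in the lower tier and 3.61 CPM in other wells. Of 32 genes of protein secretion and folding, 5 were higher: the chaperone genes Sdf2l1, Calr, Hspa5 and Hsp90b1 and P4hb, a protein disulphide isomerase. Calr averaged 1023 CPM in members (ratio 1.54 ± 0.51). The summed list was higher in members in 10 of 10 plates.

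The sorting gate could be checked on 2 of its genes. Kit had a UMI in 35 of 39 higher-tier, 121 of 130 lower-tier and 2530 of 2642 other wells. Ly6a, which encodes Sca-1, had one in 10 of 39, 58 of 130 and 1323 of 2642 wells (50.1% of the other wells). Cd34 and Flt3, genes of immature progenitors, stood at 105 and 21.7 CPM in the higher tier, at 459 and 194 CPM in the lower tier and at 324 and 156 CPM in other wells. Lower-tier wells thus held more of these immature progenitor RNAs than higher-tier wells.

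The stem cell and erythroid lists were low in members. Of 20 stem cell genes 14 were lower and none higher. Mecom, a transcription factor gene of stem cells, averaged 16.3 ± 15.6 CPM in members and 84.9 ± 35.9 CPM in other wells (ratio -2.79 ± 1.09), and Hlf had a ratio of -1.96 ± 0.64. Of 16 erythroid genes 8 were lower, among them Ermap (-4.11 ± 2.19), a blood group antigen gene, and Blvrb (-2.76 ± 1.43), a biliverdin reductase gene. Lymphoid genes were lower in 3 of 14, megakaryocyte genes in 3 of 12, dendritic cell genes in 2 of 15, and 1 of 30 interferon-stimulated genes was lower. Of 17 monocyte and macrophage genes 1, F13a1, was higher and none lower. Their summed level was 733 ± 302 CPM in members and 277 ± 137 CPM in other wells, higher in members in 9 of 10 plates, although the list's median ratio of -0.22 was near that of all genes. Dendritic cell genes summed to 1139 ± 301 CPM in members and 969 ± 295 CPM in other wells (higher in 6 of 10 plates). Of 13 mast cell and basophil genes 1, Mcpt8, was higher, and the list summed to 680 ± 775 CPM in members and 924 ± 884 CPM in other wells (higher in 4 of 10 plates). No gene of the S-phase, G2 and mitosis, p53 target, DNA damage tolerance or ribosomal protein lists was apart in either direction. Pcna, itself an S-phase gene, was lower in members in 10 of 10 plates, at 612 ± 175 CPM in members and 771 ± 168 CPM in other wells (ratio -0.36 ± 0.38). Rev1 was at 8.35 ± 8.62 CPM in members and 8.06 ± 6.28 CPM in other wells, with 39 UMIs in the members of the 10 plates.

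Across all genes, those with the largest ratios included F13a1, the coagulation factor XIII A gene and a monocyte marker (129 ± 105 CPM in members, 2.81 ± 2.80 CPM in other wells, ratio 5.18 ± 1.56), C3 of complement (4.66 ± 1.94), Atp8b4, a phospholipid flippase gene (4.52 ± 1.23), Anxa3 (4.14 ± 1.01), Igsf6 (3.79 ± 1.47), Mtus1 (3.41 ± 1.04), the chemokine gene Ccl9 (2.74 ± 1.41), Ap3s1 (2.58 ± 0.75), Alas1 of haem synthesis (2.56 ± 0.94) and Tifab (2.51 ± 1.06). F630028O10Rik had a ratio of 3.49 ± 1.17. Mcpt8, a basophil protease gene (4.10 ± 1.82), owed 87.6% of its member UMIs to 1 well. Among the lowest were Mt2 of the metallothioneins (-3.72 ± 1.54), Col5a1 (-3.29 ± 1.58), Rhag of the Rh antigen complex (-3.26 ± 1.68), Socs2, an inhibitor of cytokine signalling (-3.09 ± 1.14), Hemgn (-2.93 ± 1.43), Atp1b2 (-2.77 ± 1.07) and Myh10 (-2.73 ± 1.51). Over all 2811 wells, the genes outside the rule most like the score were Plac8 (Spearman rho 0.44), Gpr97 (0.39), H2afy (0.39), Serpinb1a (0.37), Ramp1 (0.36), Cmtm7 (0.35), BC035044 (0.35), Cd34 (0.34), Igfbp4 (0.33) and Slco3a1 (0.30) of 12170 genes ranked. This order reflects the many low-scoring wells: Cd34 was among the 10 although it was lowest in the higher tier.

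The lower tier, set alone against the other wells in 8 plates, kept part of this pattern. Irf8 (log2 ratio 1.88 ± 1.14), Plac8 (1.62 ± 0.75), Ms4a6c (1.58 ± 1.32), Runx1 (0.89 ± 0.39), Calr (0.87 ± 0.30), Serpinb1a (0.75 ± 0.47) and Igfbp4 (0.66 ± 0.12) were higher in 8 of 8 plates, and Hlf (-1.37 ± 0.58) and Mycn (-1.35 ± 0.83) lower in 8 of 8. Gfi1 was higher in 2 of 8 (-0.21 ± 0.34) and Flt3 in 3 of 8 (-0.02 ± 0.43). These genes were picked after their values were seen.

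**Figure D3:**
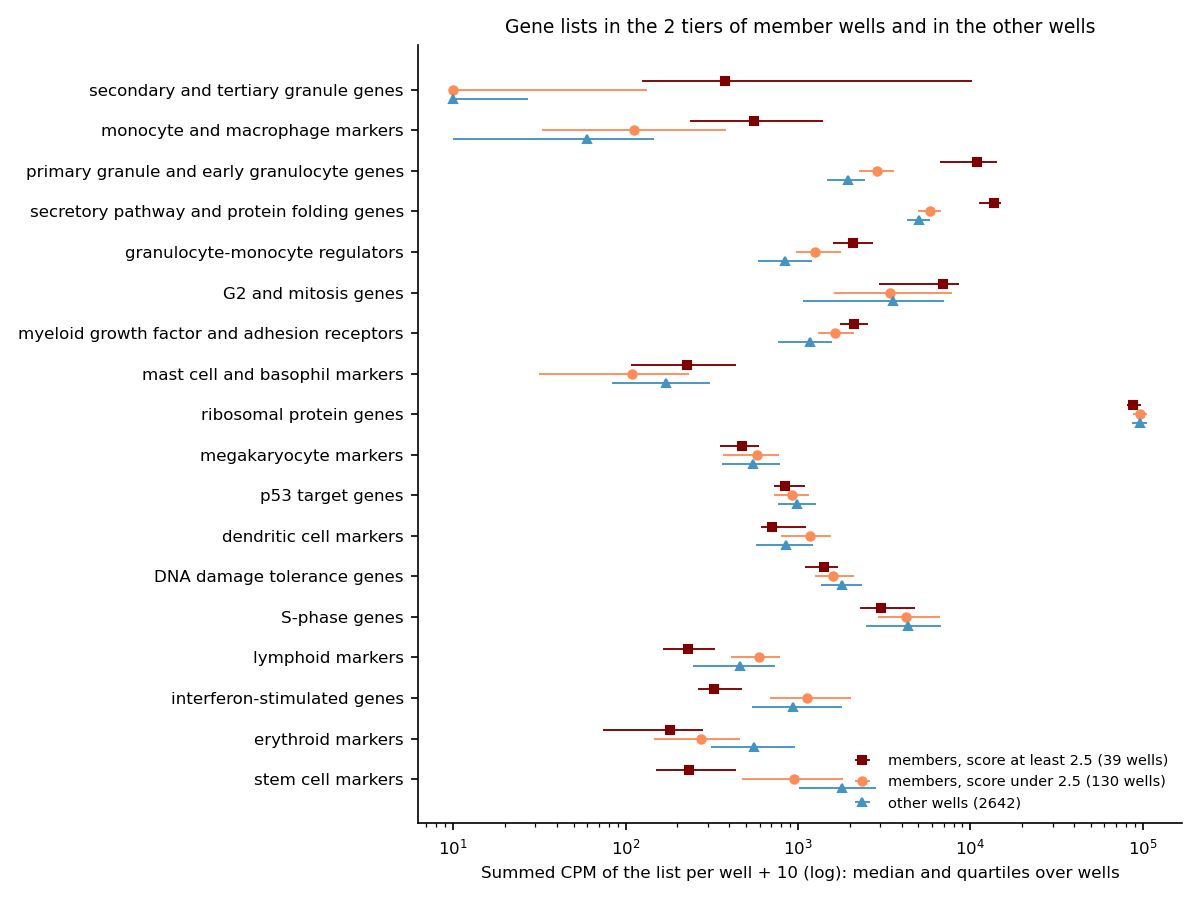
Median and quartiles over wells of the summed CPM + 10 (log axis) of each gene list in higher-tier, lower-tier and other wells. Secondary granule, monocyte, primary granule and secretory genes run highest in the higher tier, stem cell, erythroid, interferon-stimulated and lymphoid genes lowest there, and the lower tier sits near the other wells for most lists.

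Summed per well, the lists set the tiers further apart. Primary granule genes had a median of 10853 CPM in higher-tier, 2866 CPM in lower-tier and 1952 CPM in other wells, and secretory genes 13735, 5836 and 5058 CPM. Stem cell genes ran the other way, at 224, 945 and 1798 CPM, and interferon-stimulated genes were at 315, 1116 and 924 CPM. G2 and mitosis genes stood at 6891, 3388 and 3547 CPM and S-phase genes at 3029, 4233 and 4339 CPM, while ribosomal protein genes hardly differed, at 87482, 96265 and 96909 CPM. Of 10 secondary granule genes that could be counted in members against other wells, none met the count for higher and Ltf was lower, although the list's median ratio was 1.99. Monocyte markers reached 547, 103 and 49.7 CPM. At least 1000 CPM of monocyte markers was seen in 14 of 39 higher-tier, 15 of 130 lower-tier and 155 of 2642 other wells.

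Secondary granule genes, which mark a later neutrophil stage, divided the higher tier. Their sum reached 1000 CPM in 15 of 39 higher-tier, 3 of 130 lower-tier and 5 of 2642 other wells, and over the 39 wells it ran with the score (Spearman rho 0.67, a description). S100a8 and S100a9, the subunits of calprotectin, together reached 1000 CPM in 14 wells from 7 plates, a line drawn after the data were seen. Of these wells 2 were double mutant, 1 Rev1 knockout, 3 Pcna K164R and 8 WT. They had a median score of 5.83, a median of 8341 CPM of Elane and 432 CPM of Gfi1, a Cebpe UMI in 14 of 14, an Fcnb (ficolin B) UMI in 13 and an Irf8 UMI in 2. The other 25 higher-tier wells, from 11 plates, had a median score of 3.97 and medians of 1395 CPM of Elane and 127 CPM of Gfi1, with Cebpe in 10 wells, Fcnb in 7, Irf8 in 14 and Csf1r, the M-CSF receptor gene, in 16. Of these, 11 were double mutant, 2 Rev1 knockout, 2 Pcna K164R and 10 WT. Camp, for the secondary granule peptide cathelicidin, was seen in 12 of the 14 and in 2 of the 25 wells, while Ltf (lactoferrin) was at 0 in all 39.

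**Figure D4:**
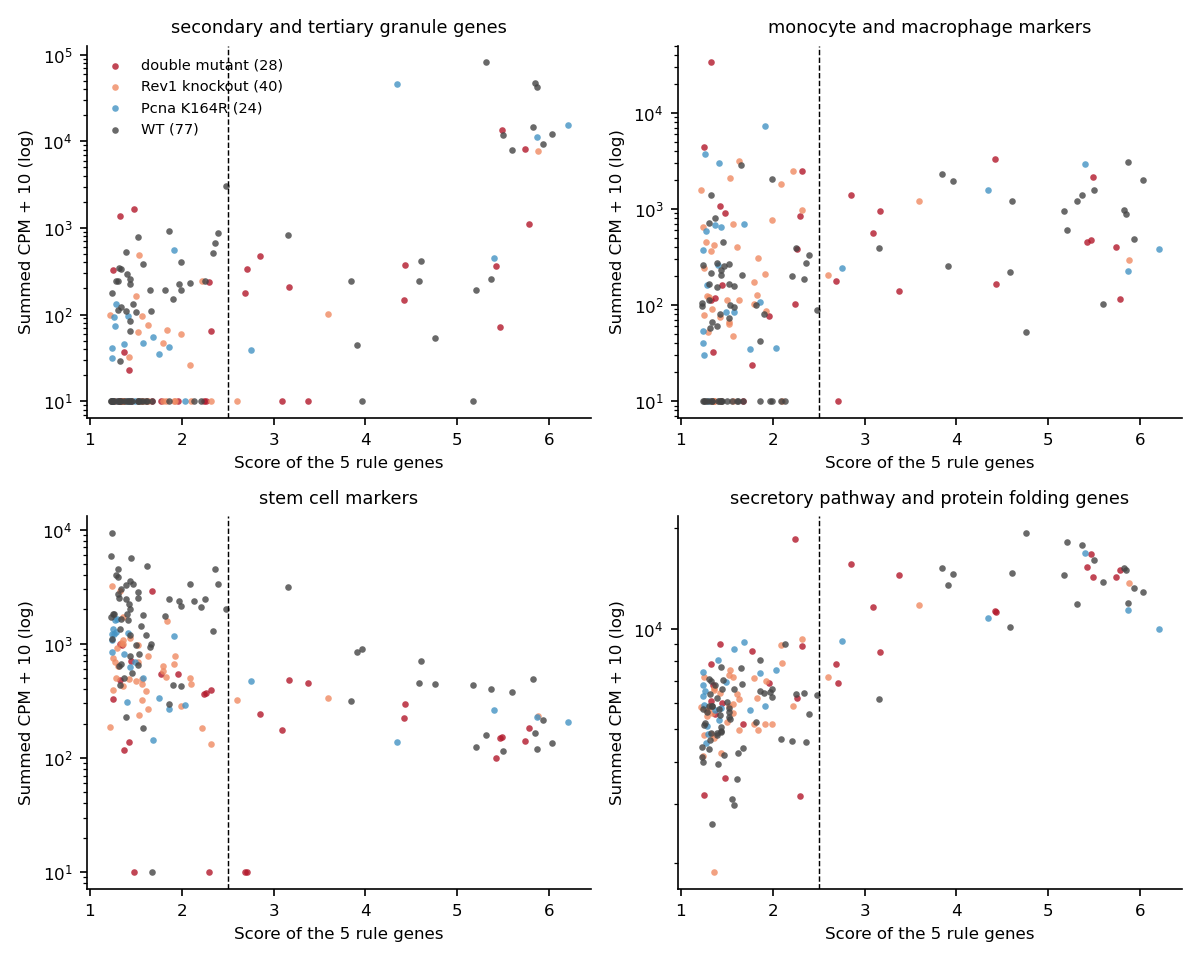
Summed CPM + 10 (log axis) of 4 gene lists against the score in the 169 member wells, coloured by genotype, with a dashed line at 2.5. Secondary granule genes exceed 1000 CPM in 15 wells right of the line, 14 of them above a score of 5, stem cell genes fall off to the right, and the secretory genes climb.

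Sets of 169 wells, 6% of the scored wells each, were chosen by the same kind of rule for other lineages. The dendritic and monocyte set shared 36 with the members (21.3% of each), the mast cell and basophil set 17 (10.1%), the megakaryocyte set 14 (8.28%), the lymphoid set 7 (4.14%), the stem cell set 5 (2.96%) and the erythroid set 1 (0.592%). In the higher tier, 7 wells were also in the dendritic and monocyte set and 6 in the mast cell and basophil set.

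Within the members, genotypes were compared on UMIs summed per plate with edgeR's quasi-likelihood test and Benjamini-Hochberg adjustment over 7217 genes, with session as a term. Only plates with at least 5 members entered, which left out double mutant replicates 3 and 4. In that fit the double mutant and Pcna K164R plates shared a session with WT replicate 1 alone, and Rev1 knockout replicate 1 was alone in its session, so it did not enter the Rev1 knockout fold changes, which set replicates 2 and 3 against WT replicates 2 and 3. The double mutant comparison called 3 genes (0.0416%), 2 higher (0.0277%) and 1 lower (0.0139%), and 505 of 7217 had an unadjusted p under 0.05. Anxa1, encoding annexin A1, a glucocorticoid-regulated protein of neutrophils, was higher, at 371 and 479 CPM in double mutant replicates 1 and 2 against 41.5, 123 and 77.2 CPM in WT members (log2 fold change 3.25, SE 0.48, adjusted p = 0.0137). The groups did not overlap. Higher-tier wells held 159 of the 267 Anxa1 UMIs in double mutant replicate 1 and 129 of the 132 in replicate 2. Single wells held 85 and 75 of them. In WT members the higher tier held 7 of 11, 50 of 53 and 37 of 59. Outside the fit, the library labelled double mutant replicate 4 had 446 CPM in members, with 25 of 27 UMIs in 1 well. With the session term the Anxa1 fold change sets double mutant replicates 1 and 2 against WT replicate 1 alone, the lowest WT plate, with 11 Anxa1 UMIs. Without that term the value was 2.30 and past the threshold, and with flow cell in its place 2.17 and not past it. Xist, the RNA of the inactive X chromosome, stood at 68.1 and 57.4 CPM over all wells of double mutant replicates 1 and 2 against 0.276 CPM in WT replicate 1, so the sex of the fetuses and the double mutant cannot be told apart in this comparison. Prss34, a mast cell and basophil protease gene, had 663 and 1002 CPM in double mutant against 0, 0 and 2.62 CPM in WT members (fitted log2 fold change 11.56, adjusted p = 0.000355). Of its 477 UMIs in replicate 1, 470 came from 1 well, and all 276 in replicate 2 from another. The mitochondrial ribosomal RNA mt-Rnr1 was lower, at 1052 and 1947 CPM in double mutant against 11089, 1434 and 2191 CPM in WT members (log2 fold change -2.98, SE 0.39, adjusted p = 0.00481). These groups overlapped, and without WT replicate 1 the value was -0.29 and not past the threshold. No WT plate of session 1 then remains, so that value is not adjusted for session. No primary granule gene of 17 tested was called, and their median log2 fold change was 0.87, against 0.01 over all genes.

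In Rev1 knockout members 10 genes were higher (0.139%) and 44 lower (0.61%) than in WT members. Of 17 primary granule and early granulocyte genes tested 6 fell, and of 5 secondary granule genes 2 fell. Of 12 regulators Gfi1 fell, and of 14 receptors 1 rose and 2 fell. Only 5 of 13 secondary granule genes passed the filter on low counts. A gene could pass it through other genotypes alone, as with Camp, at 0, 2 and 1 UMIs in Rev1 knockout members against 221 and 1320 in WT replicates 2 and 3. Such a gene could hardly rise, so these counts are a description of the lists. The median log2 fold change of the primary granule list was -1.59, against -0.0014 over all genes. Mpo and Ctsg, rule genes, were also among the 44, which is not read as a result. Higher-tier wells numbered 3 of 40 members in Rev1 knockout and 18 of 77 in WT plates.

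Gstm1, a glutathione S-transferase gene, had 32.6, 87.4 and 43.8 CPM in Rev1 knockout against 158, 538 and 657 CPM in WT members (log2 fold change -3.10, SE 0.36, edgeR adjusted p = 0.000964). The groups did not overlap, and 2 of the 3 knockout plates stood below the other wells of their own plate. Over 8 plates, Gstm1 in lower-tier wells was near the other wells (log2 ratio -0.06 ± 0.76, higher in 4 of 8). Higher-tier wells numbered 8 and 8 in WT replicates 2 and 3, and 2 and 0 in Rev1 knockout replicates 2 and 3. In these sums the mix of tiers and the RNA per cell cannot be told apart. Gsr, for glutathione reductase, had 37.3, 87.4 and 68.4 CPM in Rev1 knockout against 71.6, 603 and 492 CPM in WT members (-2.76, SE 0.37, adjusted p = 0.00452). Here Rev1 knockout replicate 2 lay above WT replicate 1. Clec12a had 18.6, 54.0 and 62.9 CPM in Rev1 knockout against 98.0, 290 and 328 CPM in WT members (-2.40, SE 0.35, adjusted p = 0.00509), again without overlap. Higher-tier wells held 116 of the 125 and 247 of the 251 Clec12a UMIs in members of WT replicates 2 and 3, and 1 well 39 of the 42 in Rev1 knockout replicate 2. With lower-tier wells alone the Clec12a value was 0.39. Fcnb fell by 5.21 (SE 0.76) and Ly6c2, a monocyte surface gene, by 4.16 (SE 0.58) on the log2 scale. Fcnb had 0, 10 and 0 UMIs in Rev1 knockout members against 3, 71 and 363 in WT members, and Ly6c2 had 0, 5 and 10 against 17, 80 and 249. In WT replicates 2 and 3 the higher tier held 69 and 356 of the Fcnb UMIs, 62 of the 69 in 1 well, and 77 and 244 of the Ly6c2 UMIs. Rev1 knockout replicate 3 has no higher-tier well. Gfi1 had a log2 fold change of -2.07 (SE 0.35, adjusted p = 0.0124) and Hp of -3.46 (SE 0.64, adjusted p = 0.0197).

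Camp, the call with the smallest p, had 0, 2 and 1 UMIs in Rev1 knockout against 0, 221 and 1320 UMIs in WT members. Of the WT UMIs, 1172 came from 1 well of replicate 3 and 218 from 1 well of replicate 2, so the fitted value of -8.59 rests on 2 wells. C3 (-3.67), App (-3.71) and Ncam1 (-3.68) were also lower. In WT replicates 2 and 3 the higher tier held 35 of 35 and 184 of 189 C3 UMIs, 34 of 37 and 74 of 81 App UMIs, and 32 of 33 and 78 of 80 Ncam1 UMIs. The globin gene Beta-s (-8.41) had 816 of its WT UMIs in replicate 2, 757 of them in 1 well.

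Among higher genes, Sox4, a SOX family transcription factor gene, had 210, 293 and 211 CPM in Rev1 knockout against 136, 30.2 and 54.9 CPM in WT members (log2 fold change 2.53, SE 0.38, edgeR adjusted p = 0.00562). Cd34 had 582, 493.4 and 479 CPM in Rev1 knockout against 343, 165 and 225 CPM in WT members (1.33, SE 0.27, adjusted p = 0.0381). Neither pair of groups overlapped. As given above, Cd34 was lower in the higher tier than in the lower tier. The higher tier gave 51.5% and 44.6% of member UMIs in WT replicates 2 and 3. Its part was 10.8% and 0% in Rev1 knockout replicates 2 and 3. For Cd34 too, the mix of tiers and the RNA per cell cannot be told apart in these sums. In the other wells Sox4 stood at 202, 224 and 150 CPM in Rev1 knockout against 184, 65.8 and 134 CPM in WT plates, and Cd34 at 429, 447 and 376 CPM against 346, 331 and 335 CPM in WT. Tmsb10 (2.11, SE 0.32), Pou2f2 (2.02, SE 0.38), Psmb8 (1.45, SE 0.26), Pa2g4 (1.27, SE 0.28), Dctpp1 (1.26, SE 0.27), Phgdh (1.18, SE 0.26) and mt-Rnr2 (1.14, SE 0.23) also rose. Xist had 387, 244 and 353 CPM in Rev1 knockout members and 0 in all WT members, and the Y-linked genes Ddx3y, Eif2s3y and Kdm5d fell. The sex of the fetuses and the Rev1 knockout therefore cannot be told apart in these plates.

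**Figure D5:**
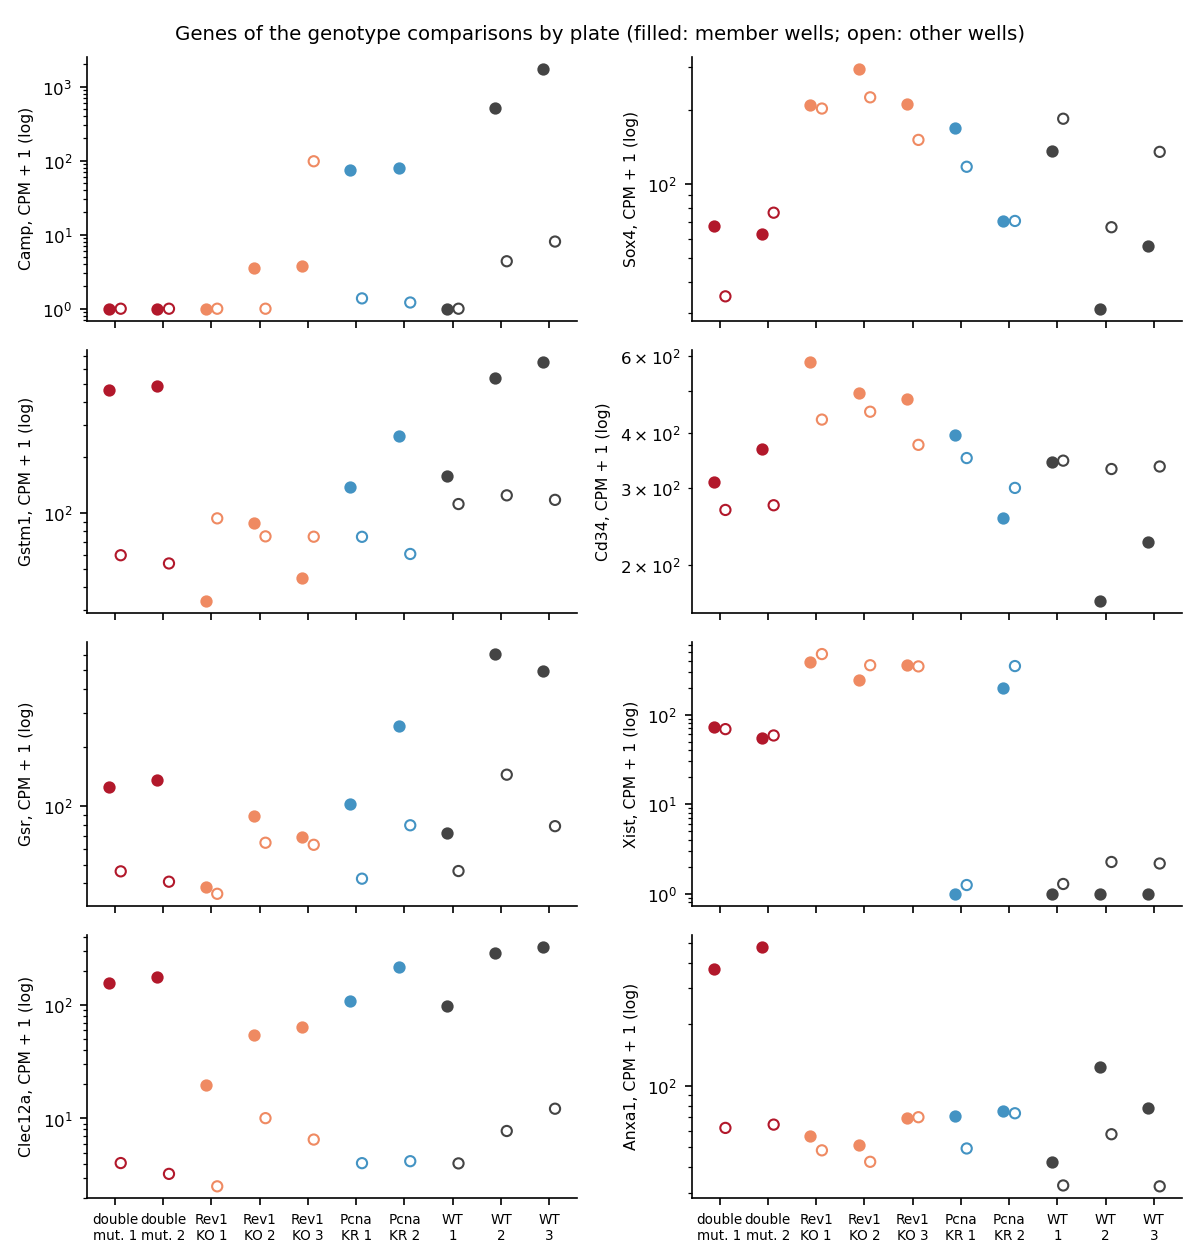
CPM + 1 (log axis) of 8 genes in summed member wells (filled) and other wells (open) of the 10 plates with at least 5 members. Gstm1, Gsr and Clec12a are low in Rev1 knockout members and lie near the other wells of their plates for Gstm1 and Gsr, Sox4 and Cd34 are higher in Rev1 knockout members than in any WT member sum, and Anxa1 stands out in the double mutant members at 371 and 479 CPM.

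The count of Rev1 knockout calls depended on which plates and wells entered. It was 15 without Rev1 knockout replicate 3, 20 without WT replicate 3, 25 without WT replicate 2, 25 and 28 without double mutant replicates 1 and 2, and 140 and 141 without Pcna K164R replicates 1 and 2, plates that enter only through the shared spread and session terms. With lower-tier wells alone, 13 genes were called, 7 of them among the 54, of which 47 could be tested, and Clec12a turned to 0.39. For the double mutant, the count was 64 without WT replicate 1, where the comparison is no longer adjusted for session, 1 without double mutant replicate 1, and 7 without either Pcna K164R plate. Without either double mutant plate Anxa1 kept its size (3.09 and 3.44) but not its call.

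Pcna K164R members gave 0 calls in edgeR (0%) and 0 in DESeq2. In edgeR 353 of 7217 genes had an unadjusted p under 0.05, a threshold that chance alone passes at a rate of 0.05. The count was 8 without Pcna K164R replicate 1, 6 without WT replicate 1, again not adjusted for session, and 1 without Rev1 knockout replicate 2 or replicate 3. The genes with the smallest p were mt-Rnr1 (3128 and 1479 CPM in Pcna K164R against 11089, 1434 and 2191 CPM in WT members), Lars2 (83.0 and 45.3 CPM against 565, 121 and 280 CPM in WT) and Fam193b (6.51 and 8.24 CPM against 60.3, 44.1 and 28.8 CPM in WT). Lars2 and Fam193b were lower in both Pcna K164R plates than in any WT plate, without passing the test (adjusted p = 0.308 and 0.96).

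Whether a genotype difference was particular to the members was tested as the interaction of membership and genotype, with the plate as a block, over 10398 genes. The fit has no term for a member-to-other difference that varies by session. Double mutant and Pcna K164R plates, all of session 1 here, were set against every WT plate, of which replicates 2 and 3 were of session 3. The test called 7 genes for the double mutant (0.0673%), 6 of them higher (0.0577%) and 1 lower (0.00962%). It called 33 for Rev1 knockout (0.317%) and 1 for Pcna K164R (0.00962%). The rule genes Elane among the 7 and Mpo and Prtn3 among the 33 are not read as results. In the double mutant, Ccl9 was 3.67 higher on the log2 scale relative to the other wells (SE 0.50, edgeR adjusted p = 0.000405), with 175 and 76.3 CPM in double mutant members against 22.6, 62.6 and 43.2 CPM in WT members, and 4.51 and 2.77 CPM in double mutant other wells against 11.3, 19.0 and 20.6 CPM in WT other wells. Anxa1 differed by 1.62 (SE 0.28, adjusted p = 0.0107) and Sepp1, for a selenium transport protein, by 1.69 (SE 0.27, adjusted p = 0.00348). The other calls outside the rule were Emb (1.24, SE 0.23), F630028O10Rik (1.91, SE 0.35) and Grb10 (-1.56, SE 0.30).

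For Rev1 knockout, 31 of the 33 differences were negative (0.298%), 2 of them in rule genes. Outside the rule they included Gstm1 (-2.20, SE 0.39), Gsr (-1.71, SE 0.32), Clec12a (-2.04, SE 0.42), Cd63 (-1.99, SE 0.35), Alas1 (-1.67, SE 0.30), Calr (-0.90, SE 0.19), P4hb (-0.93, SE 0.21) and Manf (-1.24, SE 0.24), and Camp, Ngp, Lcn2, S100a8 and S100a9 of the secondary granule list. Well 71 of Rev1 knockout replicate 3, an other well whose part in these 5 was not tested, held 422 of the 440 Camp, 579 of the 608 Ngp, 296 of the 361 Lcn2, 1101 of the 1135 S100a8 and 1175 of the 1220 S100a9 UMIs in the other wells of that plate. The 2 positive ones (0.0192%) were Sox4 (1.26, SE 0.28) and Fabp5 (1.24, SE 0.26). The count was 0 without Rev1 knockout replicate 3, 10 without WT replicate 2, 14 without WT replicate 3, 19 without Rev1 knockout replicate 1, 50 without Rev1 knockout replicate 2 and 64 without WT replicate 1, and 7 with lower-tier wells alone. For the double mutant it was 2 without WT replicate 2 and 3 without double mutant replicate 2.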

How the data were processed

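The authors deposited, for each of 12 plates, 3 tables over 384 wells: counts of observed UMIs, read counts, and transcript counts, which are estimated counts corrected for random barcodes drawn more than once (per the file names and the values). BWA 0.7.15 and the build GRCm38 (mm10) are named, without their role, per the submitters' processing notes; no source used here names a counting tool or an annotation. Deposited UMI counts outside the spike-ins were used for all main values; read counts and transcript counts (rounded after summing) were alternatives.

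Members were the top 6% by score among wells of at least 3000 UMIs. UMIs were summed per plate over member and over other wells, so that the plate was the replicate. CPM is UMIs per 1000000 UMIs of the summed wells. Genotypes were compared with edgeR 4.0.16 (R 4.3.3; TMM, filterByExpr, quasi-likelihood F-test, Benjamini-Hochberg, threshold 0.05), in 1 fit with 4 residual degrees of freedom; scripts were tested on simulated data. DESeq2 1.42.0 was an alternative, with limma 3.58.1 loaded by edgeR. Shares were compared with exact permutation tests over plates with at least 20 wells, and intervals are exact 95% binomial intervals (scipy 1.17.1); intervals and the limit of 3 counts for a share of 0 cover counting error only. Gene positions are from GENCODE on GRCm38, promoters from RefSeq on GRCm38.p6, with all 5 rule genes matched.

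Named genes were the 5 rule genes, the 20 highest and 10 lowest member-to-other ratios at 50 CPM or more, up to 4 genes per list, and up to 10 genes per direction with the smallest p per comparison; others named were chosen after their values were seen, and 1 gene is not reported here. Members and gene lists were chosen with earlier results of these data known.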

Additional observations from a re-analysis of the deposited data

Results flagged for a closer look

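The interaction of membership and genotype called 7 genes in the double mutant, 33 in Rev1 knockout and 1 in Pcna K164R plates. Rule genes, Elane among the 7 and Mpo and Prtn3 among the 33, are not read as results. For the others, the genotype differences were unequal in member and other wells in this fit. Leaving out each plate, the Rev1 knockout count ranged from 0 to 64. The differences on the log2 scale with the smallest p were 3.67 for Ccl9, 1.69 for Sepp1 and 1.62 for Anxa1 in the double mutant, -11.06 for Camp, -9.88 for Ngp and -9.29 for Gm5483 in Rev1 knockout, and -3.76 for Il1rl1 in Pcna K164R (edgeR adjusted p = 0.0049). Sepp1 had 97.3 and 102 CPM in double mutant members against 75.4, 65.0 and 88.9 CPM in WT members, and 56.9 and 63.2 CPM in double mutant other wells against 166, 136 and 174 CPM in WT other wells, so the wider contrast between the genotypes lay in the other wells. Il1rl1 had 29.3 and 4.12 CPM in Pcna K164R members against 106, 2.32 and 18.3 CPM in WT members, and 124 and 172 CPM in Pcna K164R other wells against 45.6, 7.17 and 5.89 CPM in WT other wells.

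Ngp had 0, 0 and 4 UMIs in Rev1 knockout members against 0, 2 and 46 in WT members. Gm5483, of the stefin A family, whose near-identical copies may share reads, had 0, 11 and 0 UMIs in Rev1 knockout members against 0, 117 and 295 in WT members. In the other wells, Camp stood at 97 CPM and Ngp at 134 CPM in Rev1 knockout replicate 3, of which well 71 supplied 95.9% and 95.2%.

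The share of members was 23.5% in double mutant replicate 3, far from the other double mutant plates by Dixon's test over 11 groups, of which chance marks about 1 in 20. It rests on 4 of 17 wells. In WT replicate 3, wells under 500 UMIs, which no comparison used, held 55 Elane UMIs.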

How the results depend on the processing

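No paired analysis was possible because replicate numbers follow the order of deposit and the labels give each plate a number of its own. With 3 plates against 3, share tests cannot give a p below 0.1, so the alternatives say nothing of their stability; the tests do not use the session, within which shares are given above. Signs turned for the share in double mutant against Pcna K164R (2.09 points at a minimum of 1000 UMIs, 1.06 with the top 3%, 0.94 for members with a score of at least 2.5, 1.09 for members with all 5 genes), in double mutant against Rev1 knockout (0.23 with the top 3%, 1.36 at a score of at least 2.5, 1.77 with all 5 genes) and in Rev1 knockout against WT (3.97 with read counts). Alternatives by score tier, by all 5 genes and without Elane were chosen after seeing the data.

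With the top 3%, with at least 10 members (double mutant and Pcna K164R then have 1 plate each) and without WT replicate 1, no WT plate of session 1 remains, so double mutant and Pcna K164R values in members are not adjusted for session. Counts of called genes moved as follows. A minimum of 1000 UMIs gave 352 genes apart in members against other wells, from 633, and 4 Pcna K164R interactions. A gene apart needs 1 sign in every plate, so this count depends on the number of plates. There were 12 plates at this minimum, 10 in the main setting and 6 with the top 3%. A minimum of 6000 UMIs gave 84 Rev1 knockout calls and 4 Pcna K164R interactions. The top 3% gave 35, 20 and 13 calls for double mutant, Rev1 knockout and Pcna K164R, 62, 56 and 33 interactions, and 1630 genes apart. The top 10% gave 1 double mutant and 96 Rev1 knockout calls, 21 and 3 interactions for Rev1 knockout and Pcna K164R, and 415 genes apart. Scores from wells thinned to 3000 UMIs gave 0 double mutant and 95 Rev1 knockout calls. Transcript counts gave 19 and 3 interactions for Rev1 knockout and Pcna K164R. Read counts gave 0 double mutant and 17 Rev1 knockout calls and 0, 56 and 0 interactions. Plates with at least 10 members gave 103, 158 and 53 calls and 13, 68 and 9 interactions. Members below 2.5 gave 13 Rev1 knockout calls and 4, 7 and 5 interactions. DESeq2 gave 29 Rev1 knockout calls, and 16 and 0 interactions for Rev1 knockout and Pcna K164R. No filter gave 35, 220 and 21 calls and 47, 96 and 20 interactions. No session term gave 21 double mutant and 34 Rev1 knockout calls, and flow cell in place of session gave 5, 107 and 10 calls. The cause was not tested.

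Leaving out each plate, calls ranged from 1 to 64 for the double mutant, 15 to 141 for Rev1 knockout and 0 to 8 for Pcna K164R, interactions from 2 to 9, 0 to 64 and 1 to 12, and genes apart from 675 to 829. Share differences ranged from -15.2 to -2.0 points (double mutant against WT), -12.5 to 0.75 (Rev1 knockout against WT), -14.8 to -1.61 (Pcna K164R against WT), -5.09 to 0.15 (double mutant against Rev1 knockout) and -1.30 to 0.53 (double mutant against Pcna K164R).

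Of the named genes, S100a9 in Pcna K164R against WT, 12.29 with WT replicate 1 at 0 UMIs, turned to -0.37 (top 3%), -2.04 (at least 10 members), -0.14 (no session term) and -0.69 (without WT replicate 1), Rtp4, 2.70, to -1.85, -0.52, -0.20 and -0.58 under the same, and -0.48 with flow cell, and mt-Rnr1, -2.32, to 0.13 (top 3%), 0.77 (at least 10 members), 0.28 (flow cell) and 0.37 (without WT replicate 1). Leaving out each plate, Rtp4 ranged from -0.58 to 2.77 and mt-Rnr1 from -2.92 to 0.37. None of these was past the threshold at first. In Rev1 knockout, Beta-s turned to 0.0059 with read counts and Clec12a to 0.39 with members below 2.5. Of the other gene values in genotype comparisons, 119 lost and 22 gained a call and 609 did neither. Depth limits Rev1, with 39 UMIs in members, and plates with few members.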

Other observations

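Well 71 of Rev1 knockout replicate 3, not a member, carried a late neutrophil programme with little of the early one. Of its 47391 UMIs, 1175 were S100a9, 1101 S100a8, 579 Ngp, 422 Camp, 296 Lcn2, 199 Chi3l3 and 189 Ltf, and its secondary granule list summed to 91557 CPM. It held 13 Mpo UMIs, 0 of Elane and a score of 0.613, below the threshold. Of the 2642 other wells, 4 more reached 1000 CPM of that list, between 1055 and 1410 CPM, and none of them had more than 2 UMIs of Camp, Ngp, Lcn2 or S100a9.

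The well of the same number in WT replicate 2, of the same session, was among these 4, with 1 Camp, 2 Lcn2 and 2 S100a9 UMIs of 5687.

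Of 277 wells with at least 1000 but under 3000 UMIs, which were not scored for membership, 36 lay above the score threshold.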
